A study of Mus musculus with 4 samples.

Results

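The Id genes, the inhibitory Smad genes and the Msx genes are transcribed in many tissues when cells receive bone morphogenetic protein (BMP) signals, so their transcripts are commonly read as a record of that signalling. Here 10 of them (Id1, Id2, Id3, Id4, Smad6, Smad7, Smad9, Msx1, Msx2 and Bambi) were followed in embryonic mouse kidneys after deletion of Sall1, a zinc finger transcription factor gene of the nephron progenitors. The members were chosen by name, and every non-control probe whose RefSeq accession is a transcript of one of them was taken, which gave 10 probes of 55681, 1 per gene. Of the 10 genes, 9 were well above background and were tested among 25081 genes and unnamed sequences; the tenth, Bambi, stood well above background on 0 of the 4 arrays.

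All kidneys came from embryos of a mixed 129 and C57BL/6 background at E13.5, 24 hours after tamoxifen given at E12.5, and total RNA was labelled with Cy3. The control group (2 arrays) carries titles that name flox, and the Sall1 knockout group (2 arrays) carries titles that name CreER and KO. CreER is a Cre recombinase held inactive until tamoxifen binds it, and the labels call the line Sall1CreER, a name that would place CreER under the control of Sall1 itself, so deletion would be limited to cells in which that driver is active. The labels give neither further alleles of either group, nor litters, nor the number of embryos in a sample, and because CreER is named for the knockout samples alone, an effect of CreER cannot be told apart from that of Sall1. No label ties the samples to separate embryos, so the p-values measure only the spread between these samples, which may be technical, and precision is limited by how many arrays there were.

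BMP ligands bind paired serine/threonine kinase receptors, which phosphorylate Smad1, Smad5 and Smad9; these enter the nucleus with Smad4 and switch on target genes. Among the targets are brakes on the pathway (Smad6, Smad7 and Bambi) and regulators that act further on: the Id proteins, which lack a DNA-binding region and tie up basic helix-loop-helix factors, and the Msx homeodomain proteins. In the developing kidney BMP signals bear on the survival and differentiation of nephron progenitors and on the stroma and ureter.

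Sall1 itself had log2 signals of 1.79 and 1.80 in controls against 1.03 and 1.06 in knockouts, where 0 is the 75th percentile of the array, the scale used for every level below. It was 1.68-fold lower in the knockout kidneys (adjusted p = 0.125 in limma over all features tested). On Sall1 knockout replicate 2, 60.6% of non-control spots were well above background, against 63.3% to 64.2% on the other arrays. The dimmest such spot read 18.7 there, against 15.0 to 15.8 on the others. On every array 0 spots were saturated. Of the cell type marker genes listed 0 passed in limma with the default prior. Their counts without overlap are given with the Id genes for endothelium and after the pathway lists for the others.

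The response genes differed little between the groups. Id1, Id3 and Id4 were each 1.11-fold to 1.16-fold higher in the knockout kidneys with no overlap between the groups, while Id2, Smad6, Msx1 and Msx2 had overlapping groups and differed by at most 0.036 on the log2 scale. Smad9 was 1.12-fold and Smad7 1.03-fold higher, both without overlap. In limma 0 of the 9 tested genes passed at an adjusted p under 0.05, with adjusted p-values from 0.344 to 0.930, and 0 of all 25081 features passed (a background of 0%). At an unadjusted p under 0.05 there was 1 member, Id1, against a background of 12.7% of all features (3184), and a variance prior that follows the signal also called 0 members, against a background of 1.16% (291 features).

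Counted by overlap, both knockout values lay above both control values for 5 of the 9 genes and below them for 0. Over all features tested the background was 21.8% higher without overlap and 27.4% lower without overlap. The median log2 difference was 0.044 over the 9 members and -0.011 over all features, and the median size of the difference, whatever its sign, was 0.044 for the members and 0.10 for all features. The largest was 0.21, and 0 members differed by as much as 1.5-fold, which 4.14% of all features did. The median gap between replicates was also smaller for the members: 0.060 in controls and 0.065 in knockouts, against 0.094 and 0.090 for all features.

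**Figure D1:**
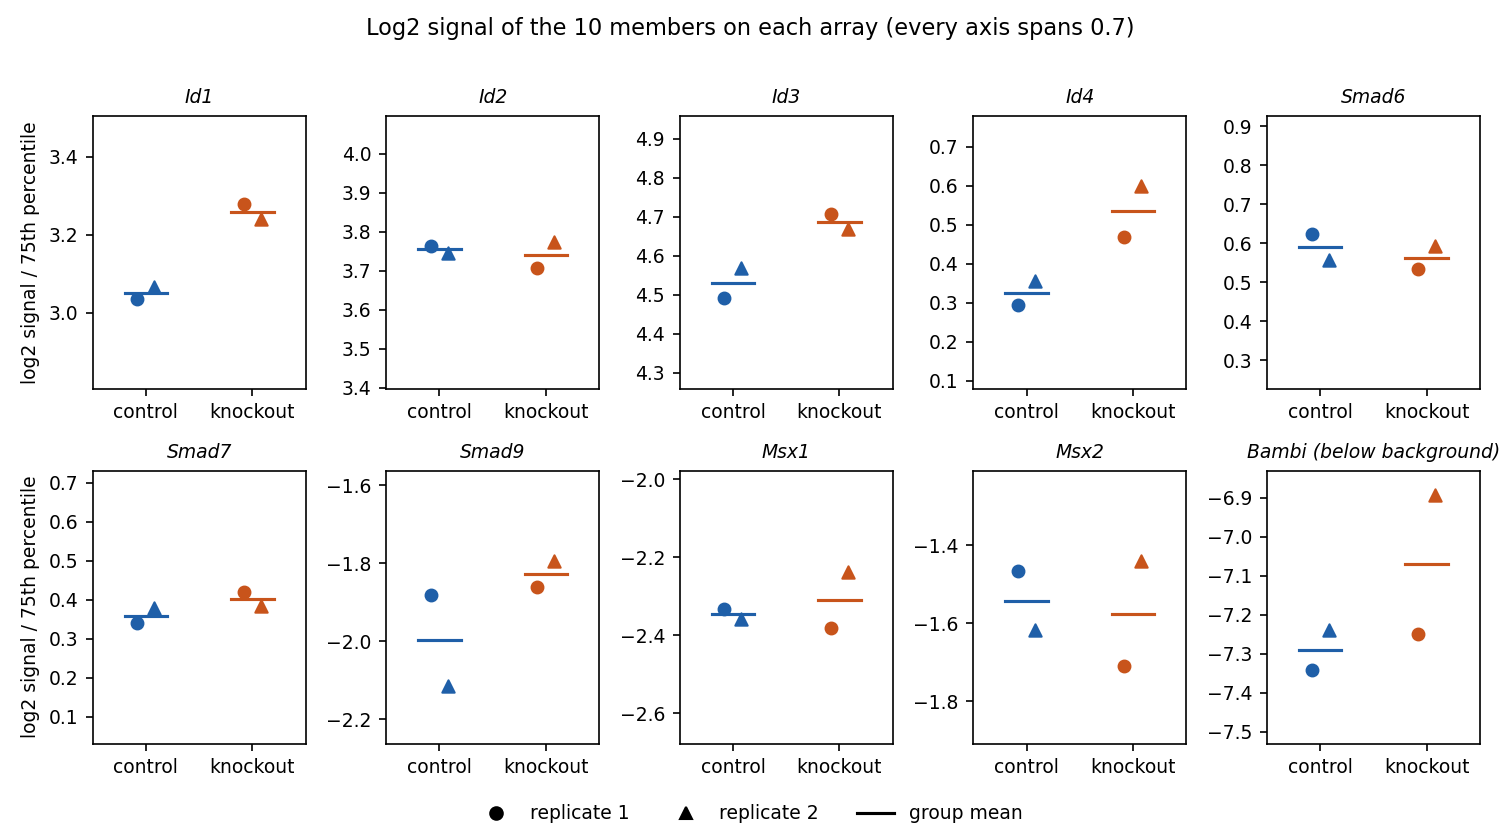
Log2 signal of each of the 10 genes relative to the 75th percentile of the array (vertical axis, spanning 0.7 in every panel) in control and Sall1 knockout kidneys, with circles for replicate 1, triangles for replicate 2 and bars for the group mean. Id1, Id3, Id4, Smad7 and Smad9 have both knockout points above both control points, for Smad7 and Smad9 by a small gap. Bambi lies far below the other genes, not well above background on any array.

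The Id genes are direct targets of BMP-activated Smads. Id1, an inhibitor of basic helix-loop-helix factors that is abundant in endothelium and many progenitor cells, had log2 signals of 3.04 and 3.07 in controls against 3.28 and 3.24 in knockouts. The replicates lay within 0.039 of each other and the groups did not overlap. Its log2 difference was 0.21 ± 0.057 (SE, n = 2 per group), with a 95% interval of the limma fit from 0.046 to 0.37 (1.03-fold to 1.29-fold), an unadjusted p = 0.0240 and an adjusted p = 0.344. 

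Id3, which shares functions with Id1 in the endothelium, had log2 signals of 4.49 and 4.57 in controls against 4.71 and 4.67 in knockouts. Both knockout values were again the higher, by 0.16 ± 0.063 (SE) on the log2 scale, a size that 17.9% of all features reached or passed in that direction, with a 95% interval from -0.020 to 0.33 (adjusted p = 0.428 in limma). Id4, an Id gene better known from neural progenitors, had log2 signals of 0.29 and 0.35 in controls against 0.47 and 0.60 in knockouts. It did not overlap between the groups either, and its difference was 0.21 ± 0.075 (SE), reached or passed by 13.4% of all features, with a 95% interval from -0.0050 to 0.42 (adjusted p = 0.401 in limma).

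Endothelial genes were read beside these results; in RNA of whole kidneys more cells of a type and more RNA per cell cannot be told apart. Of 10 endothelial genes, 7 were higher without overlap and 0 lower, with a median log2 difference of 0.14. The summed level of the endothelial genes, with the 75th percentile of an array as 1, was 29.1 and 29.8 in controls against 32.2 and 33.2 in knockouts. Kdr and Cldn5, the brightest of them, differed by 0.090 and 0.37, and the part of endothelium in the differences of Id1, Id3 and Id4 was not tested.

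Id2, which is widely expressed in developing epithelia, was the only Id gene whose groups overlapped. Its 95% interval overlaps those of Id1, Id3 and Id4, and a contrast between Id2 and the other Id genes was not tested. Id2 had log2 signals of 3.76 and 3.75 in controls against 3.71 and 3.77 in knockouts, so the control values lay between the knockout values. The difference was -0.014 ± 0.060 (SE), with a 95% interval from -0.18 to 0.16 (adjusted p = 0.930 in limma), which spans knockout levels from 0.880 to 1.11 times the control level and does not show that the gene was unaltered.

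The ratio of 2 probes on the same array does not depend on a factor that scales the whole array, although quantile normalization can change it. The other Id genes were therefore also set against Id2, a step chosen after the values were seen. The log2 ratio of Id1 to Id2 was -0.73 and -0.68 in controls against -0.43 and -0.54 in knockouts. It was higher by 0.22 without overlap, where replicates differed by up to 0.11. For Id3 to Id2 the shift was 0.17 and for Id4 to Id2 it was 0.22, also without overlap. Each shift is the gene's own difference less that of Id2, so the ratios restate the differences above and add no separate evidence. The ratios of Smad7 to Smad6 and of Msx1 to Msx2 overlapped. Those of Smad9 to Smad6 and of Id1 to Id3 were higher without overlap, by 0.20 and 0.051. No background share over other pairs of genes is given. With 2 arrays against 2, an exact two-sided permutation test cannot give a p below 0.333, so these ratios carry no test.

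Scaling of the arrays mattered for the Id genes as absolute levels. Before any scaling the processed signal of Id1 was 4920 and 4602 in controls against 5192 and 4941 in knockouts, and that of Id3 was 13500 and 13038 against 13975 and 13297. Unscaled, Id1 still did not overlap and Id3 did, with log2 differences of 0.090 and 0.039, in a setting where the median of all features was -0.13. Id2 and Smad6 were then lower without overlap, and Id2 was so with median scaling too. Without scaling 2 members were higher and 2 lower without overlap, against backgrounds of 7.68% and 50.3%; with median scaling 3 were higher and 1 lower, against 15.7% and 35.2%. Normexp background correction gave 4 higher and 0 lower, against 26.7% and 23.7%. Id1 and Id4 were among the higher members in all of these. Unscaled, their gaps were narrow. The highest control and lowest knockout signals were 4920 and 4941 for Id1 and 736 and 740 for Id4.

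The promoters of Id2, Id3 and Id4 are shown, the Id genes with a promoter sequence available. Id2 had overlapping groups here and Id3 and Id4 did not, a contrast that was not tested. Scaling changed it: unscaled, Id3 overlapped and Id2 was lower without overlap. Each run is the 250 bases before the annotated start, from RefSeq on build GRCm38.p6, written 5′ to 3′ on the strand of the gene. Capitals mark GGCGCC, the GC-rich core that Smad proteins bind in BMP response elements, and GTCT on either strand (AGAC as written), the short Smad site. The windows are chr12:25096093-25096342 (minus strand) for Id2, chr4:136143572-136143821 (plus strand) for Id3 and chr13:48260866-48261115 (plus strand) for Id4.
Id2: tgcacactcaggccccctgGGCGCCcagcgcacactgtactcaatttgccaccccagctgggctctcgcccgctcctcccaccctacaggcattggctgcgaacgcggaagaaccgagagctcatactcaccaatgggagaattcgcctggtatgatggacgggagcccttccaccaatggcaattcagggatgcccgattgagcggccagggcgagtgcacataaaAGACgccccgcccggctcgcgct
Id3: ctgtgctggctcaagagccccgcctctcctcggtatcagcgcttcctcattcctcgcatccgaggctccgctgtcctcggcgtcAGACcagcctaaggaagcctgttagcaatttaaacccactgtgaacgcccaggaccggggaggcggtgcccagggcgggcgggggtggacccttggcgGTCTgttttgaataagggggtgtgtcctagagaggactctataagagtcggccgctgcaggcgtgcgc
Id4: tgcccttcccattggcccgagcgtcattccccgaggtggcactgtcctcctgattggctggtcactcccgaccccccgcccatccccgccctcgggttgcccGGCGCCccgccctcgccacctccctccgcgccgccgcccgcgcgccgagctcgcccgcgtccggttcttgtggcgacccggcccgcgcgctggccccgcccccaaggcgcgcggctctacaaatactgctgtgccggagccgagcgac

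GGCGCC was found 231 bases before the start of Id2 and 148 bases before that of Id4, and not in the window of Id3. GTCT was found once in Id2, at 23 bases before the start, at 166 and 68 bases in Id3, and not in Id4. Of 32851 promoter windows of the same length, 9.59% hold GGCGCC and 82.9% hold GTCT, while the palindrome GTCTAGAC, which contains the short site on both strands, is in 0.167% of them and in 0 of the 7 member windows in the table (Id2, Id3, Id4, Smad6, Smad9, Msx1 and Msx2). Id1 is among the members without an entry. The 3 windows printed are 62.8%, 62.8% and 75.6% G and C, against a median of 52.4% over all windows, and a GC-rich motif is met more often in such sequence. These matches describe the letters in the window and are not evidence of binding.

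The inhibitory Smads close the pathway's feedback loop: Smad6 blocks mainly BMP signals and Smad7 both BMP and TGF-beta signals. Smad6 had log2 signals of 0.62 and 0.56 in controls against 0.53 and 0.59 in knockouts, which overlap. The difference was -0.027 ± 0.063 (SE), with a 95% interval from -0.21 to 0.15 (adjusted p = 0.868 in limma). Smad7 had log2 signals of 0.34 and 0.38 in controls against 0.42 and 0.38 in knockouts. The second knockout array exceeded the second control array only in the third decimal (0.385 against 0.378), so the lack of overlap rests on a very small gap. The difference was 0.044 ± 0.058 (SE), with a 95% interval from -0.12 to 0.21 (adjusted p = 0.762 in limma).

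Smad9, also called Smad8, is a BMP-activated Smad whose own transcript responds to BMP. Its log2 signals were -1.88 and -2.11 in controls against -1.86 and -1.80 in knockouts. Both knockout values were higher, the nearer pair only 0.019 apart, and the control arrays differed from each other by 0.23, more than the groups did. The difference was 0.17 ± 0.10 (SE), with a 95% interval from -0.12 to 0.46 (adjusted p = 0.534 in limma). It was 0.052 without control replicate 2 and 0.29 without control replicate 1.

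The Msx genes encode homeodomain repressors that are induced by BMP at sites where epithelium meets mesenchyme. Msx1 had log2 signals of -2.33 and -2.36 in controls against -2.38 and -2.24 in knockouts, with the control values inside the knockout range. Its difference was 0.036 ± 0.076 (SE), with a 95% interval from -0.18 to 0.25 (adjusted p = 0.851 in limma). Msx2 had log2 signals of -1.47 and -1.62 in controls against -1.71 and -1.44 in knockouts. The knockout replicates of Msx2 lay 0.27 apart, the widest gap between replicates of any tested member. The difference of Msx2 was -0.033 ± 0.12 (SE), with a 95% interval from -0.39 to 0.32 (adjusted p = 0.920 in limma).

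Bambi encodes a pseudoreceptor that resembles the type I BMP receptors without their kinase and dampens signalling. Its processed signal was 3.70 and 3.63 in controls against 3.52 and 4.40 in knockouts. The dimmest spots well above background on the same arrays read 15.8, 15.4, 15.0 and 18.7. Bambi therefore stayed within background on all 4 arrays, no fold is given, and with 1 probe for the gene these arrays do not show whether its transcript was made in either group.

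**Figure D2:**
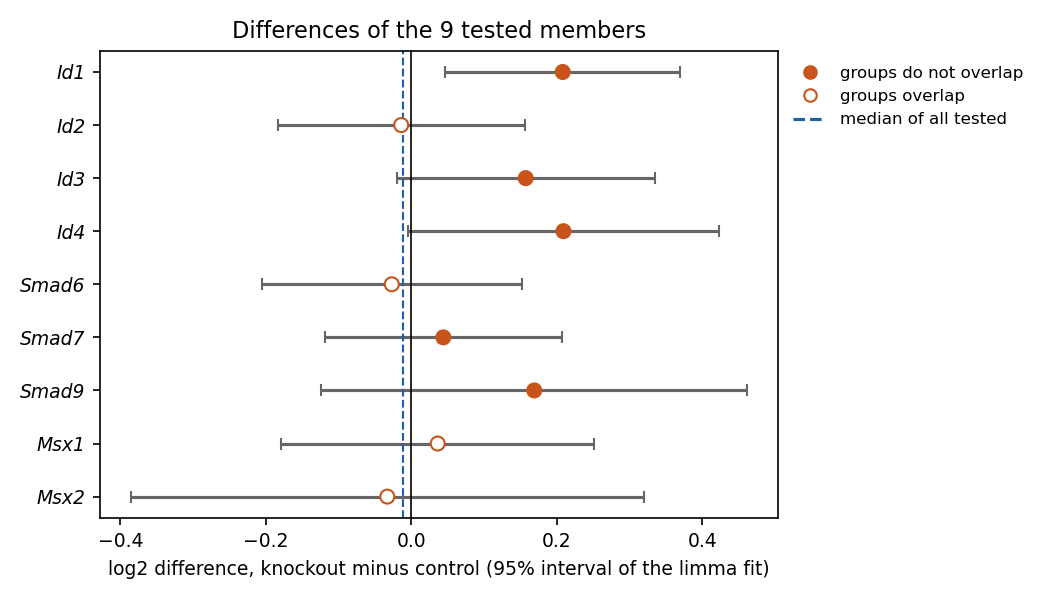
Log2 difference (horizontal axis, knockout minus control) of the 9 tested genes with the 95% interval of the limma fit, filled points marking genes whose groups did not overlap and the dashed line the median of all features at -0.011. The interval of Id1 lies above 0 before adjustment, and those of the other 8 genes include 0.

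The rest of the pathway was read from lists written by role, all measured on the same arrays. In limma 0 genes of these 7 lists passed (smallest adjusted p 0.177), so counts without overlap are given beside the backgrounds of 21.8% higher and 27.4% lower. Of 14 BMP and GDF ligand genes, 4 were higher and 2 lower without overlap, with a median log2 difference of 0.073. Bmp5 was 1.64-fold higher (adjusted p = 0.270) and Bmp3 1.41-fold higher (adjusted p = 0.322), while Bmp7, the main BMP ligand of the nephron progenitors and ureteric bud, was 1.22-fold lower (adjusted p = 0.323 in limma). Bmp4, the ligand of the mesenchyme around the ureter, differed by only -0.035 ± 0.056 (SE).

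Of 16 antagonists and extracellular modulators tested, 7 were higher without overlap and 0 lower. Sostdc1, an antagonist of BMP and Wnt ligands, was 1.93-fold higher, and Chrdl1, a chordin-like BMP antagonist, 1.67-fold higher; both had an adjusted p = 0.177 in limma. Log2 signals of Chrdl1 were -3.25 and -3.37 in controls against -2.61 and -2.54 in knockouts, well apart from each other. Under the prior that follows the signal 1 gene of this list, not named here, was called higher, where 1.16% of all features were called.

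Receptors and Smads are the parts between ligand and response gene. Of 11 receptor and co-receptor genes 4 were higher and 3 lower without overlap. Eng, a co-receptor of endothelial cells, was 1.20-fold higher (adjusted p = 0.300 in limma), as was the co-receptor Rgmb (1.20-fold, adjusted p = 0.365). Acvr2b and Bmpr2, both type II receptors, were each 1.10-fold lower (adjusted p = 0.485 and 0.503 in limma). Of 14 Smads and their regulators 1 was higher and 5 lower without overlap. Tob1, an antiproliferative protein that can bind Smads, was 1.29-fold lower (adjusted p = 0.247), Smad5 was 1.08-fold lower (adjusted p = 0.544) and Zeb2, a Smad-interacting repressor, was 1.08-fold higher (adjusted p = 0.488 in limma).

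TGF-beta family ligands and receptors (11 genes) differed by a median of 0.22 on the log2 scale, with 7 higher and 1 lower without overlap. Tgfb1 was 1.21-fold higher (adjusted p = 0.338), Inhbb, an activin subunit, was 1.55-fold higher (adjusted p = 0.362), and Acvr1b, an activin receptor, was 1.56-fold lower (adjusted p = 0.558 in limma). The low control value of Acvr1b, -3.00, lay next to the knockout values of -3.01 and -3.13, so its difference rests on control replicate 1 at -1.85.

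Of 11 further response genes of BMP and TGF-beta, 3 were higher and 1 lower without overlap, with a median of 0.099 and a range from -0.17 to 0.53. Atoh8, a basic helix-loop-helix gene that responds to BMP, was 1.12-fold higher with log2 signals of -1.84 and -1.94 in controls against -1.73 and -1.72 in knockouts (adjusted p = 0.427 in limma). Hey1, a repressor downstream of Notch and BMP, was 1.10-fold higher (adjusted p = 0.455), and Tgfbi, a matrix protein named for its response to TGF-beta, was 1.13-fold lower (adjusted p = 0.447 in limma). Hamp, Dlx5 and Lefty1 were left out by the filter on dim probes.

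Among basic helix-loop-helix genes, whose proteins the Id proteins restrain or whose partners they bind, 2 of 11 were higher and 1 lower without overlap. Tcf3, which encodes the E proteins E12 and E47 that Id proteins bind directly, was 1.12-fold lower (adjusted p = 0.470 in limma). Twist1, a mesenchymal factor, was 1.30-fold higher (adjusted p = 0.380) and Myod1, a muscle-lineage factor, 2.69-fold higher (adjusted p = 0.448 in limma). Log2 signals of Myod1 were -2.99 and -4.62 in controls against -2.11 and -2.64 in knockouts, and on these arrays the median difference of skeletal muscle markers was 1.26.

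Markers of other cell types were read in the same way, and with the default prior 0 of them passed in limma. Under the prior that follows the signal, 6 nephron progenitor genes and 1 skeletal muscle gene were called lower. Called higher were 2 liver and gut genes, 1 macrophage and leukocyte gene and 1 endothelial gene, where the background of calls in either direction was 1.16% of all features. Nephron progenitor genes summed to 127 and 120 in controls against 84.6 and 90.3 in knockouts, with 7 of 10 lower without overlap. All 10 liver and gut genes were higher without overlap, by a median of 1.52, with summed levels of 13.7 and 19.6 against 42.5 and 38.3. Of 9 macrophage and leukocyte genes, 8 were higher without overlap (median 0.57, summed 6.53 to 7.06 in the control and 8.68 to 10.2 in the knockout arrays), and stromal genes had a median of 0.083 with 3 of 10 higher and 2 lower (summed 124 to 141 in the control and 148 to 154 in the knockout arrays). Skeletal muscle genes summed to 12.3 to 29.7 in the control and 35.3 to 53.7 in the knockout arrays, with 6 of 9 higher and 1 lower. Of the other lists, ureteric bud genes had a median of 0.10 (3 of 10 higher and 2 lower), nascent nephron genes one of -0.062 (1 of 8 higher and 2 lower) and erythroid genes one of 0.21 (1 of 9 higher). Erythroid genes summed to 909 and 1584 in controls against 956 and 1723 in knockouts, so replicates of each group differed more than the groups did. Of the listed markers on the array, Ckm alone was left out by the filter on dim probes. The part of any of these cells in the differences of the Id genes was not tested.

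**Figure D3:**
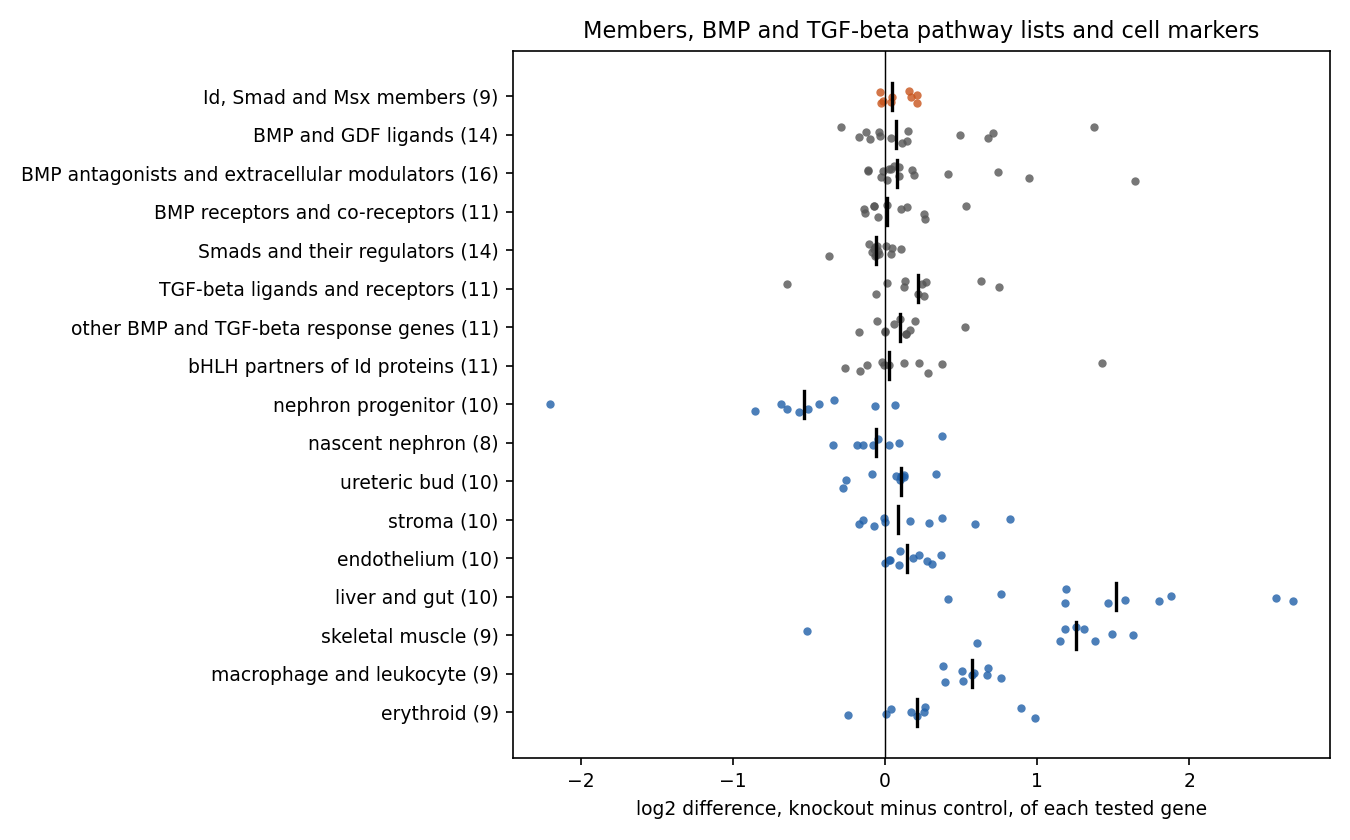
Log2 difference (horizontal axis, knockout minus control) of each tested gene in the Id, Smad and Msx group (orange), in the pathway lists (grey) and in the cell marker lists (blue), with the median as a black bar and the number of genes in brackets. The 9 Id, Smad and Msx genes lie between -0.033 and 0.21, a narrower band than the pathway lists, while liver and gut genes reach 2.68.

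**Figure D4:**
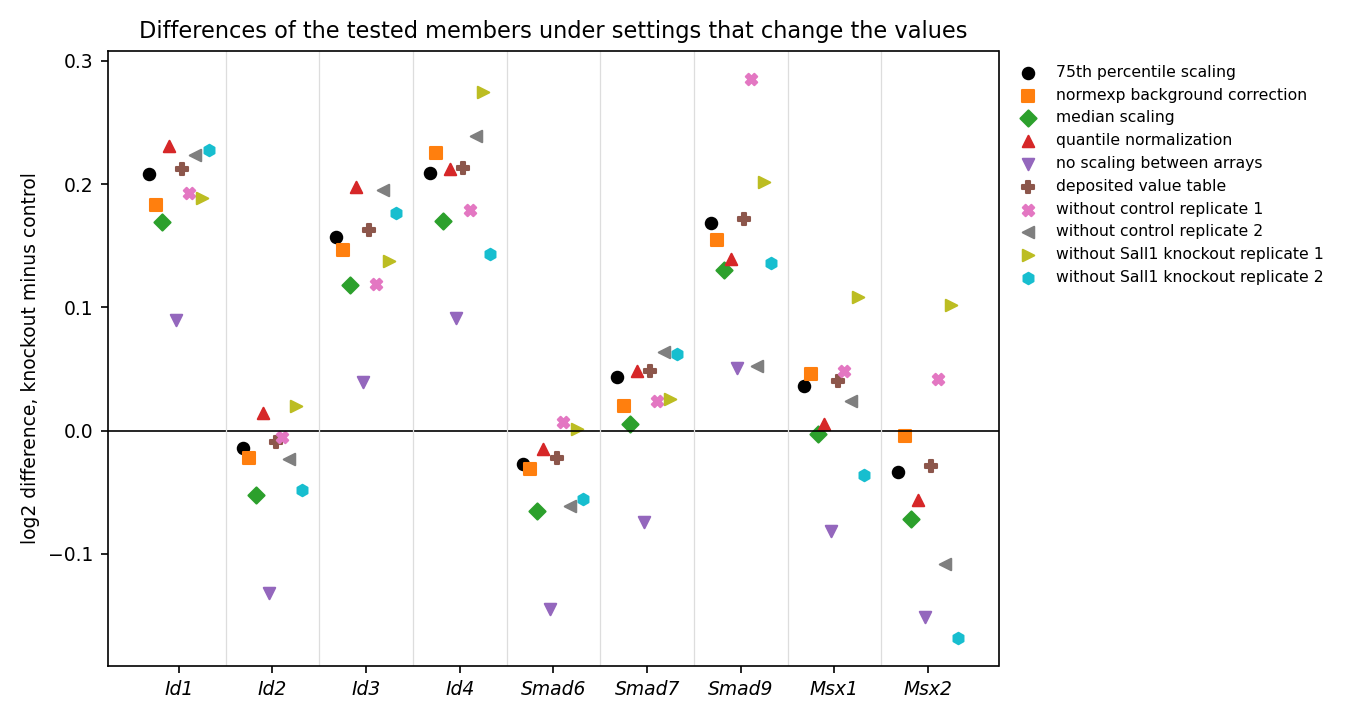
Log2 difference (vertical axis, knockout minus control) of the 9 tested genes under the settings that change the values, 1 symbol per setting. Id1, Id3, Id4 and Smad9 stay above 0 in every setting drawn, and Id2, Smad6, Smad7, Msx1 and Msx2 have symbols on both sides of 0.

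Across the settings drawn in the plot of differences by setting, Id1 ranged from 0.090 to 0.23, Id3 from 0.039 to 0.20 and Id4 from 0.091 to 0.27, in each case lowest without scaling. The groups of Id3 overlapped without scaling. Smad9 kept its sign but ranged from 0.051 to 0.29. Id2, Smad6, Smad7, Msx1 and Msx2 changed sign between settings, so their direction was not settled by these arrays. The kept sign of Id1, Id3, Id4 and Smad9 is not separate evidence of direction, because the settings reuse the same arrays. In limma the intervals of Id3 (-0.020 to 0.33), Id4 (-0.0050 to 0.42) and Smad9 (-0.12 to 0.46) span both signs. Id1 did not pass either (adjusted p = 0.344 in limma).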

How the data were processed

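The deposited scanner files give an intensity for each spot. Per the file headers they come from Agilent Feature Extraction, version 10.7.3.1, and array design 028005 (mm9), and the processed signal used here had its background removed within the array, with no step between arrays. The value table deposited with them repeats this intensity (55249 single-spot rows, 100% within 1% of the scanner value). The labelled genotype set the groups, and sample order the replicate numbers. All 4 arrays shared 1 slide and 1 scan.

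Signals were divided by the 75th percentile of each array's non-control spots and set to log2. Control and outlier-marked spots were left out and spots of a probe averaged. A probe was kept (34264 were) if it stood well above background on each array of either group. Symbols came from RefSeq accessions looked up, versions ignored, in a GRCm38.p6 table (26413 of 55681 probes). The brightest probe stood for a gene, giving 15088 named genes and 9993 unnamed sequences. The comparison used limma 3.58.1 under R 4.3.3 (lmFit, eBayes with the default prior, two-sided), with Benjamini-Hochberg adjustment over all 25081 features; the script was tested on simulated data. Standard errors and intervals are those of this fit.

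The members and lists were chosen with earlier results of these data known. All members are named; from each of 7 pathway lists, up to 2 genes per direction with the smallest unadjusted p among those without overlap; for the 9 marker lists, counts, with the brightest genes where named. Alternatives covered background correction, scaling, filters, probes, prior, weights, value source, threshold and each array left out.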

Additional observations from a re-analysis of the deposited data

How the results depend on the processing

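No member passed under any of the 17 alternatives, the lowest adjusted p being 0.102 for Id1 with a trended and robust prior. The count over all features, 0 in the fit described, was 36 with normexp correction (on the median spot signal), 11 without scaling, 291 with the trended and robust prior and 27 at an adjusted p under 0.1. Without scaling the median over members was -0.074, as was Smad7, and Msx1 was -0.082. With no background filter Bambi entered, and the median was 0.10. Median scaling turned Msx1 to -0.0024 and quantile normalization turned Id2 to 0.014. Leaving out each array in turn gave 5 to 9 members without overlap, 5 to 8 of them higher and 0 to 4 lower, and medians of 0.048 to 0.11. With 1 array for a group overlap is less frequent: 33.0% to 36.0% of all features were then higher and 38.2% to 42.3% lower without overlap, and the 9 members without Sall1 knockout replicate 2 were 5 higher and 4 lower. Genes already without overlap stay so by construction. Ranges with signs that turned were -0.048 to 0.020 for Id2, -0.061 to 0.0070 for Smad6, -0.17 to 0.10 for Msx2 and -0.036 to 0.11 for Msx1. Smad6 was 0.0015 and Msx2 0.10 without Sall1 knockout replicate 1, and Msx2 was 0.042 without control replicate 1. The cause was not tested. No paired analysis was possible because the replicate numbers were given in sample order and pair no samples. Signal over background limits Bambi, which was not measured.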
